A study of Homo sapiens with 21 samples.

Results

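The comparison described here sets A673 cells in which the fusion protein EWS/FLI was depleted and replaced by a truncated form, delta 22, against A673 cells in which EWS/FLI was depleted and nothing was put back. It rests on 9 of the 21 RNA libraries of the study: 4 delta 22 libraries, labelled batches 1 to 4, and 5 knockdown libraries, labelled batches 1 to 5. A673 is an established Ewing sarcoma cell line that carries EWS/FLI. Every one of the 9 libraries comes from cells that first received a retroviral RNAi against EWS/FLI and, after 4 days of selection, a second retrovirus (pMSCV-hygro), which held the delta 22 cDNA in one group and no insert (empty vector) in the other. The remaining 12 libraries are 4 controls with an RNAi against luciferase, 5 rescues with full-length type IV EWS/FLI (called wild type here) and 3 rescues with a mutant named mut9. All came from total RNA of flash-frozen cells. The labels do not say whether the infected cells were pooled or cloned, and give the batch number as what links libraries. They do not state that each library came from a culture of its own, so the p-values measure the spread between libraries, which may in part be technical. The limma fit takes that spread and the batch terms from all 21 libraries, not from the 9 alone.

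EWS/FLI arises from a chromosomal translocation that joins part of EWSR1, whose product has a disordered, prion-like region able to recruit co-activators, to the DNA-binding part of FLI1, a member of the ETS family of transcription factors. ETS factors read the letters GGAA, and EWS/FLI is known also to bind long runs of GGAA repeats near many genes it activates. Delta 22 is known as a form that lacks most of the EWS part and keeps the FLI part with its ETS domain. FLI1 itself is a regulator of blood and vessel lineages. Comparing delta 22 with the empty vector asks which transcripts differ when the FLI part is returned to knockdown cells without most of the EWS part.

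The deposited values are on a log2 scale with the form of regularized logarithms. They keep neither read depth nor transcript length, so a level may be compared between libraries but not between genes. Of 57820 rows, 18040 genes reached log2(10) in at least 3 of the 21 libraries and were tested. A gene is called when its limma p, adjusted by Benjamini-Hochberg over all 18040 genes, is under 0.05. All differences below are delta 22 minus knockdown in log2 units, fitted with batch as a term, with their standard error (SE), unless stated otherwise. On the first principal component of the 9 libraries, which held 33.2% of the variance, delta 22 libraries lay between 6.73 and 47.1 and knockdown libraries between -33.0 and 9.15. Delta 22 library 1 stood apart at 47.1. Of the 9 Ewing sarcoma markers listed, CD99 was listed at 0 in every library, controls included. The linear values of the listed markers summed to 6562 to 8500 in delta 22 and 4821 to 9863 in knockdown libraries, against 45066 to 46729 in the controls. The list holds FLI1, part of which the construct itself supplies, and without FLI1 the sums were 3647 to 5920, 4007 to 8846 and 41931 to 43454.

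The FLI1 transcript, part of which all rescue constructs carry, was higher in every delta 22 library. Its level was 11.51, 11.22, 10.99 and 11.38 in the delta 22 libraries of batches 1 to 4 and 9.67, 9.84, 9.99, 9.59 and 9.76 in the knockdown libraries of batches 1 to 5. The groups did not overlap, and the fitted difference was 1.49 ± 0.10, 2.82-fold (adjusted p = 2.84e-06). An exact two-sided permutation test of the group means gave p = 0.0159, the smallest that 126 rearrangements allow, and 0.0317 after adjustment over the 2 genes so tested. Paired within the 4 shared batches the exact test cannot go below p = 0.125, which it gave. FLI1 stood at 0.79 log2 units above the wild-type rescue (adjusted p = 5.92e-06). A value per gene does not separate the construct from the FLI1 gene or from residual fusion transcript. EWSR1, most of which delta 22 lacks, was at 13.65, 13.69, 13.56 and 13.70 in delta 22 and 13.58, 13.73, 13.75, 13.69 and 13.81 in knockdown libraries. These values overlapped, with a difference of -0.06 ± 0.07 and an exact two-sided permutation p of 0.270.

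Fewer transcripts were called with delta 22 than with the wild-type rescue when each was set against the same knockdown libraries. In delta 22 against knockdown, 1292 of 18040 genes were called, 7.16% of those tested. Of these, 640 (3.55% of those tested) were higher and 652 (3.61%) lower. Only 224 of them, 1.24%, differed by 2-fold or more, 71 higher (0.394%) and 153 lower (0.848%). The median size of a called difference was 0.49, or 1.41-fold. Wild type against the same knockdown libraries gave 11787 called genes (65.3%), of which 3526 (19.5%) differed by 2-fold or more. The libraries of the 2 groups did not overlap for 1508 genes (8.36%), and 805 genes were both called and separate. The difference had the same sign in all 4 shared batches for 96.6% of called genes and 32.9% of all tested. With each library median set equal, 1516 genes were called and 62.0% of them were higher, against 49.5% as fitted. The count fell by more than 1.5 times without the batch term (811 genes, of which 793 were also called with it), without delta 22 library 1 (494), 2 (797) or 4 (584), and without knockdown library 4 (723).

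**Figure D1:**
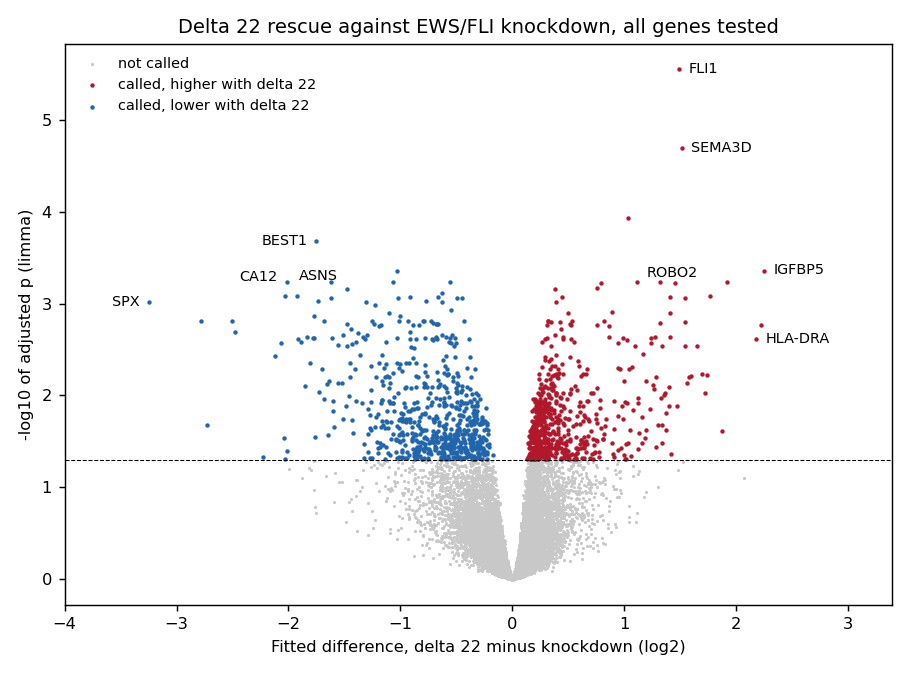
Each point is 1 of the 18040 genes tested. The horizontal axis is the fitted log2 difference, delta 22 minus knockdown, and the vertical axis is -log10 of the adjusted p, with the dashed line at 0.05. The 640 genes called higher are red and the 652 called lower are blue. FLI1 has the smallest adjusted p, and the falls reach further from 0 than the rises, with SPX at -3.25 and IGFBP5 at 2.25.

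The largest rises were picked among called genes whose groups do not overlap, so the separation of their groups was fixed by that rule. They included secreted and cell-surface proteins. IGFBP5, a secreted binding protein of insulin-like growth factors, stood at 17.56, 17.30, 16.97 and 17.45 in the delta 22 libraries and 15.50, 15.06, 14.80, 15.31 and 14.53 in the knockdown libraries. Every delta 22 library was above every knockdown library, and the fitted difference was 2.25 ± 0.25, 4.77-fold (adjusted p = 0.000447). PCSK1, a convertase that cleaves prohormones, was at 12.83, 12.61, 12.38 and 12.62 against 11.10, 11.11, 10.92, 10.62 and 10.13, a difference of 1.77 ± 0.23 (adjusted p = 0.000828) with no overlap. SEMA3D, a secreted semaphorin that steers growing axons and vessels, was at 10.80, 10.68, 10.60 and 11.01 against 9.33, 9.16, 9.46, 9.09 and 8.82. Its difference of 1.52 ± 0.13 had an adjusted p second only to that of FLI1 of all genes (2.05e-05), and its batch 3 difference, 1.14, was the lowest of the 4. TM4SF18, a transmembrane protein of the L6 family, was at 8.82, 8.72, 8.19 and 8.51 against 6.93, 6.70, 6.48, 6.97 and 5.99 and differed by 1.92 ± 0.23 (adjusted p = 0.00058).

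Intracellular proteins were among the rises too. CRYAB, a small heat-shock chaperone, was at 11.46, 11.38, 11.91 and 11.96 with delta 22 and 10.02, 10.18, 9.83, 10.47 and 9.74 in the knockdown (difference 1.70 ± 0.32). NR3C2, the mineralocorticoid receptor, was at 12.28, 11.92, 12.13 and 11.28 against 11.00, 10.55, 10.84, 9.96 and 10.73 (difference 1.41 ± 0.20). Neither overlapped between groups, which the rule of choice fixed, although delta 22 library 4 of NR3C2 lay only just above knockdown library 1. HOXB8, a homeobox transcription factor, differed by 1.41 ± 0.18, GASK1B, a Golgi protein, by 1.41 ± 0.23, and ADAMTS15, a secreted protease of matrix proteoglycans, by 1.38 ± 0.31. For GASK1B the difference between delta 22 and the wild-type rescue did not pass (0.04 ± 0.23, adjusted p = 0.881). For IGFBP5, HOXB8, NR3C2 and ADAMTS15 delta 22 was above wild type by 4.54, 2.77, 2.42 and 3.31.

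**Figure D2:**
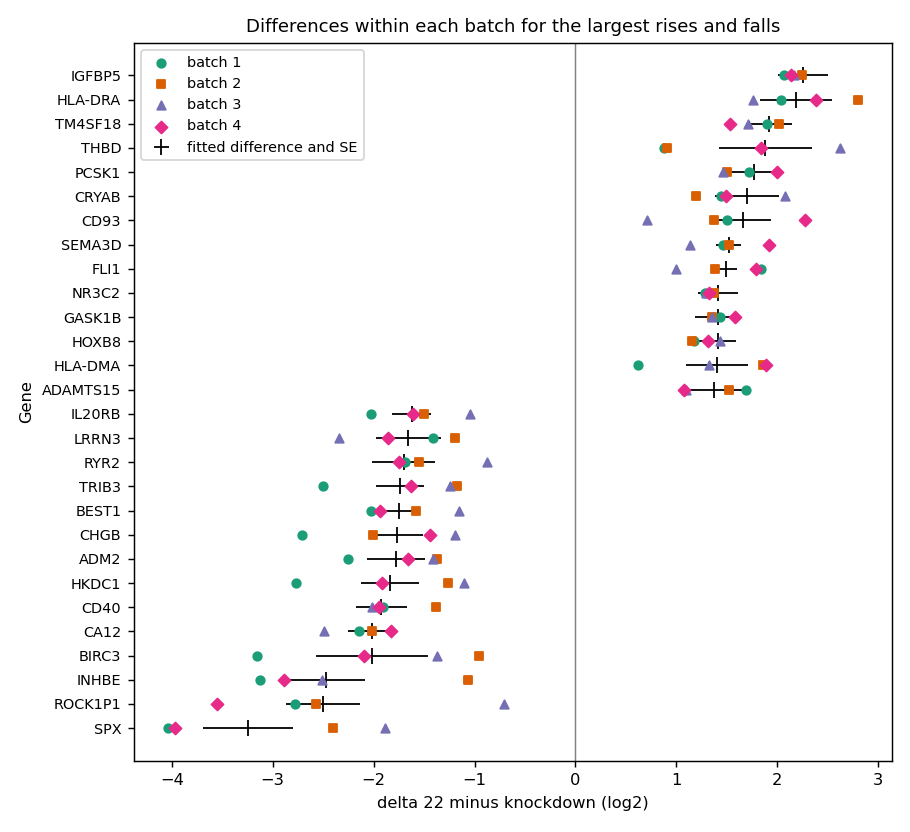
Points show the log2 difference, delta 22 minus knockdown, within each of the 4 shared batches for the 14 largest rises and 14 largest falls. The black mark and bar are the fitted difference and its SE. The genes were chosen for groups that do not overlap, which fixes the sign of every point, so the figure shows only how far the batches spread. THBD and ROCK1P1 spread most among the rises and falls, with batch 3 highest for THBD and nearest to 0 for ROCK1P1.

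The largest falls, also picked among called genes whose groups do not overlap, included peptide hormones, enzymes and membrane channels. SPX, which encodes the peptide hormone spexin, was at 4.61, 7.38, 6.91 and 5.46 in delta 22 and 8.64, 9.78, 8.80, 9.43 and 10.23 in knockdown libraries. The groups were separate with a difference of -3.25 ± 0.45 (adjusted p = 0.000973), and batches 1 and 4 differed by -4.03 and -3.97 against -2.40 and -1.88 in batches 2 and 3. INHBE, an inhibin beta subunit, was at 4.62, 6.21, 5.67 and 5.49 against 7.74, 7.28, 8.18, 8.38 and 7.90 and differed by -2.48 ± 0.39 (adjusted p = 0.00203). ADM2, a peptide of the adrenomedullin family, was at 6.19, 7.44, 7.23 and 6.80 against 8.44, 8.82, 8.64, 8.46 and 8.94 and differed by -1.78 ± 0.29 (adjusted p = 0.00236). For these peptide genes the difference between delta 22 and wild type did not pass, at -0.02 ± 0.45, 0.24 ± 0.39 and 0.13 ± 0.29 (adjusted p = 0.969, 0.611 and 0.706).

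BEST1, a chloride channel, had the smallest adjusted p among the falls (0.000209). It was at 6.83, 7.31, 7.63 and 6.82 with delta 22 and 8.85, 8.89, 8.78, 8.76 and 9.10 without, a difference of -1.75 ± 0.18. CA12, a membrane carbonic anhydrase, was at 8.82, 10.15, 9.39 and 9.53 against 10.97, 12.16, 11.88, 11.36 and 10.89 and differed by -2.01 ± 0.24. CD40, a receptor of the tumour necrosis factor family, was at 5.23, 6.91, 6.66 and 6.72 against 7.14, 8.30, 8.68, 8.67 and 8.75, with the first library of each group lowest, and differed by -1.92 ± 0.25. RYR2, an intracellular calcium release channel, differed by -1.70 ± 0.31, HKDC1, a hexokinase, by -1.84 ± 0.29, CHGB, a granin of secretory granules, by -1.77 ± 0.25, LRRN3, a neuronal membrane protein, by -1.66 ± 0.32 and IL20RB, a cytokine receptor subunit, by -1.62 ± 0.19. ROCK1P1 fell by 2.50 on the log2 scale, but as a pseudogene of ROCK1 it shares sequence with its parent, and reads of the pair may have been split. BIRC3, an inhibitor of cell death, differed by -2.02 ± 0.56 (adjusted p = 0.0402) and was not called without the batch term (adjusted p = 0.0789).

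Many genes of the amino-acid and stress response fell. ATF4 is the transcription factor that cells translate when amino acids run short or the endoplasmic reticulum is stressed, and its known targets import amino acids, make them and charge transfer RNAs. Of 26 genes listed for this response and the unfolded protein response, all were tested, 18 were lower and 0 higher, against 3.61% lower among all genes. The median difference of the 26 was -0.54, against 0.004 over all genes, and all 26 fitted differences were negative. The count of 18 fell to 9 without the batch term and to 8, 11, 10, 11 and 11 without delta 22 library 1, 3 or 4 or knockdown library 1 or 5, and to 10 within the 4 shared batches alone.

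ASNS, the enzyme that makes asparagine, was the member with the smallest adjusted p (0.000692). Its level was 10.63, 11.25, 11.17 and 11.03 in delta 22 and 12.66, 12.22, 12.36, 12.30 and 12.84 in knockdown libraries. All delta 22 values were lower, and the difference of -1.48 ± 0.19 was a 2.78-fold fall. TRIB3, a pseudokinase induced by ATF4, was at 9.04, 10.34, 10.04 and 9.11 against 11.54, 11.51, 11.29, 10.74 and 11.57 and fell by 1.74. CHAC1, which breaks down glutathione, was at 8.48, 9.24, 8.76 and 8.57 against 10.28, 9.91, 9.85, 9.92 and 10.05 and fell by 1.30. SLC7A11, the cystine importer, was at 13.46, 13.65, 13.43 and 13.17 against 14.24, 14.20, 14.05, 13.67 and 14.04 and fell by 0.67, while delta 22 minus wild type was 0.00 ± 0.09. For each of these 4 genes the groups did not overlap, and each stayed called without the batch term and without any single library.

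Enzymes of serine synthesis and the folate cycle stood among the called members of the list. PHGDH, PSAT1 and PSPH, which make serine, differed by -0.55 ± 0.09, -0.75 ± 0.16 and -0.56 ± 0.09, and their groups did not overlap. SHMT2 and MTHFD2, which pass serine carbon into the mitochondrial folate cycle, differed by -0.50 ± 0.10 and -0.39 ± 0.11. PHGDH and MTHFD2 were not called without the batch term (adjusted p = 0.0882 and 0.0563). PHGDH and PSAT1 were also lower than in the wild-type rescue (delta 22 minus wild type -0.79 and -0.80, adjusted p = 1.23e-06 and 0.000305). SESN2, an inhibitor of growth signalling, was at 9.46, 10.48, 10.30 and 9.37 against 11.81, 11.59, 10.93, 10.82 and 11.61 and fell by 1.47. Unlike the serine enzymes it stood above the wild-type rescue, by 0.83 (adjusted p = 0.00792).

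DDIT3 and DDIT4, stress-induced regulators, fell by 0.89 and 1.01, with at least 1 delta 22 library inside the knockdown range. DDIT4 was not called without the batch term (adjusted p = 0.0513). The other members called were the transporters SLC3A2 and SLC7A5, the transcription factors ATF5, CEBPB and XBP1 and the chaperone HSPA5, with differences of -0.44 ± 0.12, -0.34 ± 0.10, -0.61 ± 0.17, -0.57 ± 0.16, -0.42 ± 0.12 and -0.62 ± 0.17. None of these 6 was called without the batch term, where adjusted p ran from 0.0512 for SLC7A5 to 0.181 for CEBPB. ATF4 itself was at 14.39, 14.61, 14.55 and 14.48 in delta 22 and 14.59, 14.62, 14.58, 14.55 and 14.48 in knockdown libraries, values that overlapped (difference -0.09 ± 0.06, adjusted p = 0.459). ATF3 ranged widely in both groups, with a fitted difference of -0.32 ± 0.37 (adjusted p = 0.671).

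Genes outside the list but also known to respond to ATF4 were picked out after their values were seen. CTH, which makes cysteine, was at 8.07, 9.05, 8.85 and 8.59 against 10.29, 10.15, 9.78, 9.75 and 10.37 and differed by -1.48 ± 0.22. PCK2, the mitochondrial enzyme making phosphoenolpyruvate, was at 7.75, 8.40, 7.92 and 8.16 against 9.26, 9.15, 9.53, 9.42 and 9.32 and differed by -1.38 ± 0.22. Both were separate between groups, and INHBE and ADM2, given above, are known to respond to ATF4 too. Of 20 cytosolic transfer RNA synthetases, listed after the data were seen, 5 were lower (3.61% of all genes) and 0 higher, with a median of -0.12. The 5 were MARS1, YARS1, AARS1, GARS1 and IARS1, with differences of -0.38 ± 0.08, -0.46 ± 0.09, -0.42 ± 0.09, -0.35 ± 0.08 and -0.33 ± 0.08. AARS1 was not called without the batch term (adjusted p = 0.0872). Without delta 22 library 1 only 3 synthetases passed, and after quantile scaling 9 did.

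The stress genes were set against the wild-type rescue in the same fit, which shares the knockdown libraries. Of the 26, wild type minus knockdown had 1 higher (31.5% of all genes) and 20 lower (33.9%). Delta 22 minus wild type had 8 higher (32.9% of all genes) and 6 lower (30.8%), with a median of 0.05. The mean log2 level of the 26 genes ran from 11.44 to 12.07 over the delta 22 libraries and from 12.13 to 12.43 over the knockdown libraries, without overlap. It ran from 11.40 to 11.61 in the controls, 11.21 to 11.93 in wild type and 11.68 to 12.06 in mut9. The knockdown libraries were thus the highest of all groups.

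**Figure D3:**
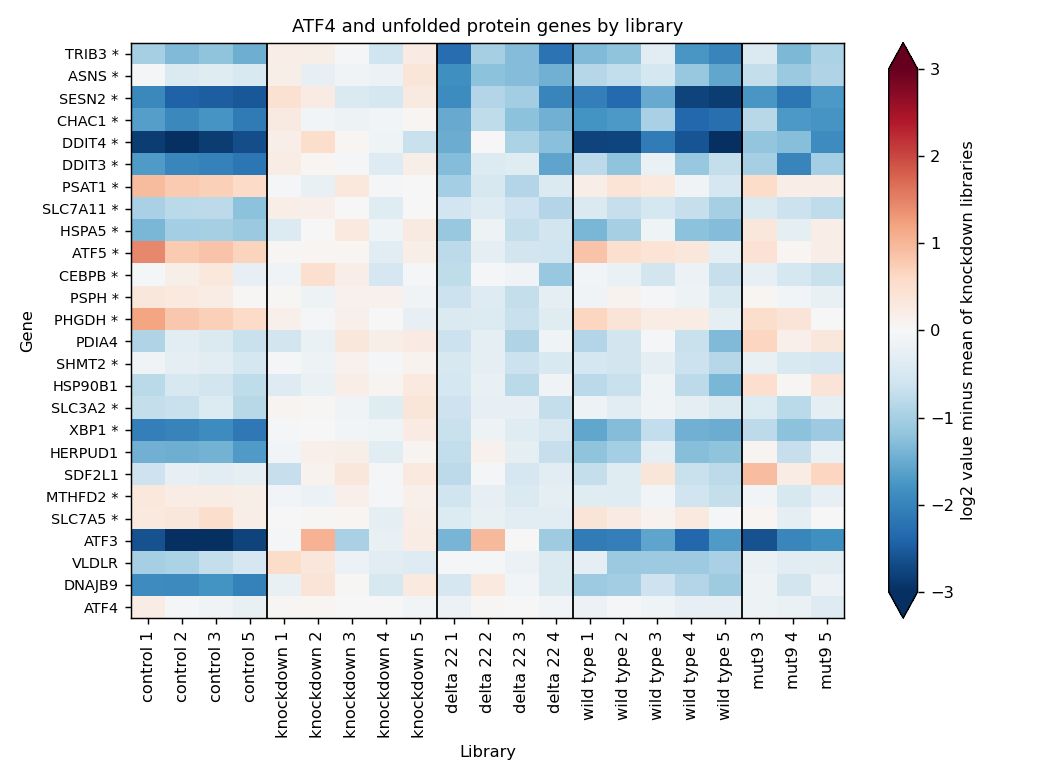
Rows are the 26 listed genes of the ATF4 and unfolded protein responses, ordered by fitted difference, and columns are the 21 libraries by group. Colour is the log2 value minus the mean of the 5 knockdown libraries, and an asterisk marks the 18 genes called lower. Among the delta 22 libraries, 1 and 4 are the bluest for TRIB3, SESN2 and DDIT3, and ATF4 in the bottom row is nearly white throughout.

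The promoters of 2 of these genes are printed because their upstream windows hold the letters TGATGNAA, on either strand, that the composite site of ATF4 and its C/EBP partners carries. Each run is the 250 bases before a RefSeq gene start in GRCh38.p14, read 5′ to 3′ on the gene's strand, with the match in capitals. The ASNS match starts 68 bases before the gene start of the window printed, and the CHAC1 match, on the opposite strand, 209 bases before its gene start. A further ASNS window, before another gene start, held 0 matches.
ASNS, chr7:97872409-97872658, minus strand: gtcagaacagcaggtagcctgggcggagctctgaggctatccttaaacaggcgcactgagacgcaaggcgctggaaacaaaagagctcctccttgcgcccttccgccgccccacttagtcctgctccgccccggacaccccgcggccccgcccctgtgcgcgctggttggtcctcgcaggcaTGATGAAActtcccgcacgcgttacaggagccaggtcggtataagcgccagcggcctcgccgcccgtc
CHAC1, chr15:40953221-40953470, plus strand: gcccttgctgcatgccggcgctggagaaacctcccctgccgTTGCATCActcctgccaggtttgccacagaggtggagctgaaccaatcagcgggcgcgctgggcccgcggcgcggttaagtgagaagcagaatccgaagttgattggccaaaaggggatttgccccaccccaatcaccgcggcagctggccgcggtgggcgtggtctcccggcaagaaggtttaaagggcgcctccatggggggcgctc
The letters stood in the windows of 4 of 23 listed genes that had a window, namely ASNS, CHAC1, ATF3 and HERPUD1. They stood in 2.63% of 12338 tested genes with a window, in 3.54% of the 508 called higher and in 6.60% of the 424 called lower. The motif was added after the fall of these genes was seen, and a match of letters is a description, not a bound site.

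Genes of antigen presentation by MHC class II rose. These proteins present peptides to helper T cells and are normally made by antigen-presenting cells or under interferon gamma, through the master regulator CIITA. The list of 13 genes was written after the data were seen, so its count is not independent evidence of a direction. Of its 12 tested members 10 were higher (3.55% of all genes) and 0 lower, with a median difference of 1.25, and the thirteenth, HLA-DQA1, was under the filter. The count fell to 4 without delta 22 library 2 and to 4 without library 4. HLA genes have near-identical copies, and reads that fit more than one may have been split or dropped, so single members are uncertain.

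HLA-DRA, the invariant alpha chain of HLA-DR, was at 8.06, 9.78, 7.49 and 9.03 in delta 22 and 6.02, 6.98, 5.73, 6.65 and 6.58 in knockdown libraries. The difference was 2.18 ± 0.36, 4.54-fold (adjusted p = 0.00242), with the groups separate and library 2 highest in both. HLA-DMA and HLA-DMB, which load peptides onto class II molecules, differed by 1.40 ± 0.30 and 1.57 ± 0.30. HLA-DRB1 and HLA-DRB5, beta chains of HLA-DR, differed by 1.73 ± 0.35 and 1.26 ± 0.25. HLA-DPA1, HLA-DPB1, HLA-DQB1 and HLA-DOA differed by 1.37 ± 0.34, 0.90 ± 0.26, 1.19 ± 0.29 and 1.23 ± 0.27. Of these, HLA-DPB1 and HLA-DQB1 overlapped between groups and were not called without the batch term (adjusted p = 0.0862 and 0.087).

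CIITA was at 8.82, 9.5, 8.13 and 8.80 in delta 22 and 8.31, 8.19, 7.54, 7.73 and 6.85 in knockdown libraries. Delta 22 library 3 lay below knockdown libraries 1 and 2, and the difference was 1.06 ± 0.26 (adjusted p = 0.0235). CIITA lost its call in 2 of the 9 fits that left out 1 library, with the highest adjusted p, 0.0903, without delta 22 library 4. CD74, the invariant chain that escorts class II molecules, was at 6.57, 9.28, 6.35 and 8.49 against 5.56, 6.77, 6.37, 6.90 and 7.86 and did not pass (difference 1.05 ± 0.43, adjusted p = 0.161). HLA-DOB, which restrains peptide loading, had a fitted difference of -0.28 ± 0.27 (adjusted p = 0.603). Against wild type, delta 22 had 10 of the 12 higher (32.9% of all genes) and 0 lower, with a median of 2.22. There HLA-DRA differed by 5.13 and CIITA by 4.11.

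**Figure D4:**
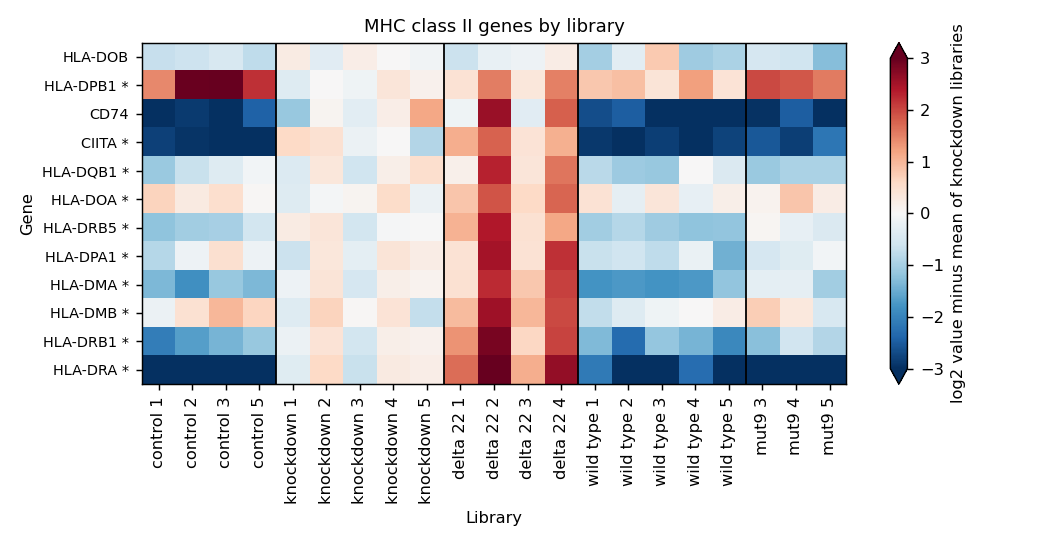
Rows are the 12 tested MHC class II genes and columns the 21 libraries by group. Colour is the log2 value minus the mean of the 5 knockdown libraries, limited to 3 in either direction, and an asterisk marks the 10 genes called higher. Delta 22 libraries 2 and 4 are the reddest and libraries 1 and 3 paler.

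Most known FLI1 targets of blood and vessel cells did not pass. Of 32 listed genes 20 were tested, 4 were higher (3.55% of all genes), 3 lower (3.61%) and 13 did not pass, with a median of 0.12. Without delta 22 library 1, 2 or 4, or knockdown library 4, 1 member was called higher, and without delta 22 library 1 or 4 or knockdown library 4, 1 was called lower. KDR, the main receptor of vascular endothelial growth factor, was at 11.20, 11.14, 10.64 and 10.67 in delta 22 and 9.76, 10.18, 10.23, 8.82 and 8.79 in knockdown libraries. The groups were separate, with a difference of 1.31 ± 0.31 (adjusted p = 0.0212). KDR lost its call in 4 of the 9 fits that left out 1 library, with the highest adjusted p, 0.0832, without delta 22 library 1. EMCN, an endothelial sialomucin, was at 9.78, 8.52, 9.10 and 9.85 against 8.94, 6.93, 7.12, 8.54 and 6.98, with overlap in the raw levels. In every shared batch its delta 22 library was the higher of the pair, a constancy of sign that most called genes had. The difference was 1.55 ± 0.21 (adjusted p = 0.000878), and without the batch term EMCN was not called (adjusted p = 0.0535).

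ITGB3, an integrin beta chain of platelets and vessels, was at 9.39, 9.54, 9.34 and 9.59 against 8.25, 9.21, 8.26, 8.26 and 7.43 and differed by 1.13 ± 0.28 (adjusted p = 0.0257). It lost its call in 5 of the 9 fits that left out 1 library, with the highest adjusted p, 0.0843, without delta 22 library 4. CDH5, the cadherin of endothelial junctions, differed by 1.02 ± 0.30 (adjusted p = 0.0488) and lost its call in 8 of the 9 fits that left out 1 library, with the highest adjusted p, 0.178, without delta 22 library 1. The 3 lower members were TAL1, a blood stem cell transcription factor, PTPN6, a phosphatase of blood cells, and ROBO4, an endothelial guidance receptor. TAL1 was at 2.55, 2.87, 3.51 and 2.55 against 4.19, 4.28, 3.89, 3.55 and 4.36 and differed by -1.15 ± 0.23. Most of its delta 22 values lay below the log2(10) of the filter, where values are shrunken, so the size of its fall is uncertain. PTPN6 and ROBO4 differed by -0.70 ± 0.18 and -1.18 ± 0.32, and ROBO4 was not called without the batch term (adjusted p = 0.0694). Platelet genes GP9, GP1BB and PF4 were listed at 0 in every library.

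CD93 and THBD, which are not on that list, were among the 14 largest rises. CD93, a glycoprotein of endothelial and myeloid cells, was at 8.20, 8.37, 7.91 and 8.19 with delta 22 and 6.70, 7.0, 7.19, 5.92 and 5.63 in the knockdown (difference 1.66 ± 0.28, adjusted p = 0.00287). THBD, thrombomodulin, was at 10.09, 10.43, 11.30 and 10.02 against 9.22, 9.52, 8.67, 8.18 and 7.68 (difference 1.88 ± 0.46, adjusted p = 0.0241), and lost its call in 6 of the 9 fits that left out 1 library, with the highest adjusted p, 0.0724, without delta 22 library 3. Of 10 endothelial markers, 8 were tested, 3 were higher (3.55% of all genes) and 1 lower (3.61%). Without delta 22 library 1, 2 or 4 or knockdown library 4, 1 was higher. The 1 lower was not called without the batch term, without delta 22 library 1, 3 or 4 or without knockdown library 2, 4 or 5. Their summed linear level was 2694 to 3644 in delta 22, 1249 to 2091 in knockdown, 656 to 1179 in control and 508 to 1519 in wild-type libraries. In the delta 22 libraries KDR and EMCN, given above, make up most of that sum, so it says little about the markers as a set. In bulk RNA a change in the number of cells that make a transcript and a change in RNA per cell cannot be told apart. Markers of immune cells summed to 186 to 258 in delta 22 and 248 to 455 in knockdown libraries. All libraries came from the A673 line, and whether all or only some of its cells make these transcripts was not tested.

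The upstream windows of IGFBP5 and KDR are printed to show where the ETS core GGAA, which the FLI part is known to read, stands in promoters of 2 genes that rose. Capitals mark GGAA or its reverse complement. IGFBP5 had matches starting 233 and 78 bases before the gene start, and KDR had 1 at 164 bases.
IGFBP5, chr2:216695550-216695799, minus strand: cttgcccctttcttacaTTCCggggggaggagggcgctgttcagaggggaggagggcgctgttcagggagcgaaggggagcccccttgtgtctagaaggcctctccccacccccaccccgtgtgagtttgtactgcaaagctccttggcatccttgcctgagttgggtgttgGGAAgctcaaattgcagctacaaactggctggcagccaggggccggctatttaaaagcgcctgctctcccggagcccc
KDR, chr4:55125596-55125845, minus strand: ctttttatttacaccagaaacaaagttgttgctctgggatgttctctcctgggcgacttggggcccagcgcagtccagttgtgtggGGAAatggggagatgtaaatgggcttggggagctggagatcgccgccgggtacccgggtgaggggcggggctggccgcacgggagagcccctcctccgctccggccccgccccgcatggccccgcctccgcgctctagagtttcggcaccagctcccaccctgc
The core is common, standing in the windows of 94.4% of all tested genes, 94.9% of those called higher and 94.8% of those called lower. The longer ETS motif CCGGAAG stood in 17.2% of all, 14.4% of those higher and 18.9% of those lower. A run of 3 GGAA stood in the windows of 10 of the 12338 genes, of which 0 were called higher and 1, TAL1, lower.

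Among genes that EWS/FLI is known to activate, none passed as higher with delta 22. Of 40 listed genes, all tested, 0 were higher (3.55% of all genes) and 4 lower (3.61%), with a median of -0.04. Delta 22 minus wild type had 33 lower (30.8% of all genes) and 6 higher (32.9%), with a median of -1.70. NR0B1, a nuclear receptor activated through GGAA repeats, was at 7.82, 8.73, 8.48 and 8.51 in delta 22 and 8.45, 9.27, 10.39, 9.29 and 9.84 in knockdown libraries. The groups overlapped. Delta 22 was the lower in every shared batch, a constancy of sign that most called genes had. The difference was -1.05 ± 0.22 (adjusted p = 0.0103), and delta 22 minus wild type was -3.01. FEZF1, a neural zinc-finger factor, was at 6.17, 6.45, 7.18 and 7.12 against 7.10, 7.99, 8.72, 7.41 and 8.01 and differed by -1.12 ± 0.26 (adjusted p = 0.0191). It lost its call in 2 of the 9 fits that left out 1 library, with the highest adjusted p, 0.081, without delta 22 library 1. PPP1R1A, a phosphatase inhibitor, and IGF1, a growth factor, differed by -0.86 ± 0.24 and -0.81 ± 0.24. Their adjusted p of 0.0431 and 0.0495 became 0.105 and 0.0973 without the batch term. The 4 called fell to 1 without delta 22 library 1, without library 2, or within the 4 shared batches, and to 2 without the batch term, after quantile scaling or without knockdown library 5.

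Other known EWS/FLI targets did not pass. NKX2-2, a homeobox factor needed for transformation by EWS/FLI, was at 7.41, 7.20, 7.42 and 7.70 against 6.77, 7.23, 7.60, 7.46 and 7.08 (difference 0.14 ± 0.14, adjusted p = 0.608). PRKCB, a protein kinase C, was at 9.17, 10.55, 10.58 and 10.83 against 9.73, 10.86, 11.50, 10.26 and 10.88 (difference -0.35 ± 0.25, adjusted p = 0.448), with library 1 lowest in both groups. GLI1, the hedgehog pathway transcription factor, had a fitted difference of 0.00 ± 0.18, STEAP1, a metalloreductase, one of -0.30 ± 0.14, and LIPI, a lipase, one of -0.48 ± 0.27. The differences of FCGRT, GSTM4, CAV1, EZH2, SOX2 and UPP1 were -0.14, -0.39, 0.31, -0.11, 0.26 and -0.58, with adjusted p from 0.087 for UPP1 to 0.71 for FCGRT. Of 20 genes listed as neighbours of GGAA repeats 19 were tested. Of these 0 were higher (3.55% of all genes) and 3, NR0B1, FEZF1 and IGF1, lower (3.61%). Without delta 22 library 1 or 2, or within the 4 shared batches, 1 was lower. Against wild type 18 of these 19 were lower (30.8% of all genes) and 1 higher (32.9%).

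**Figure D5:**
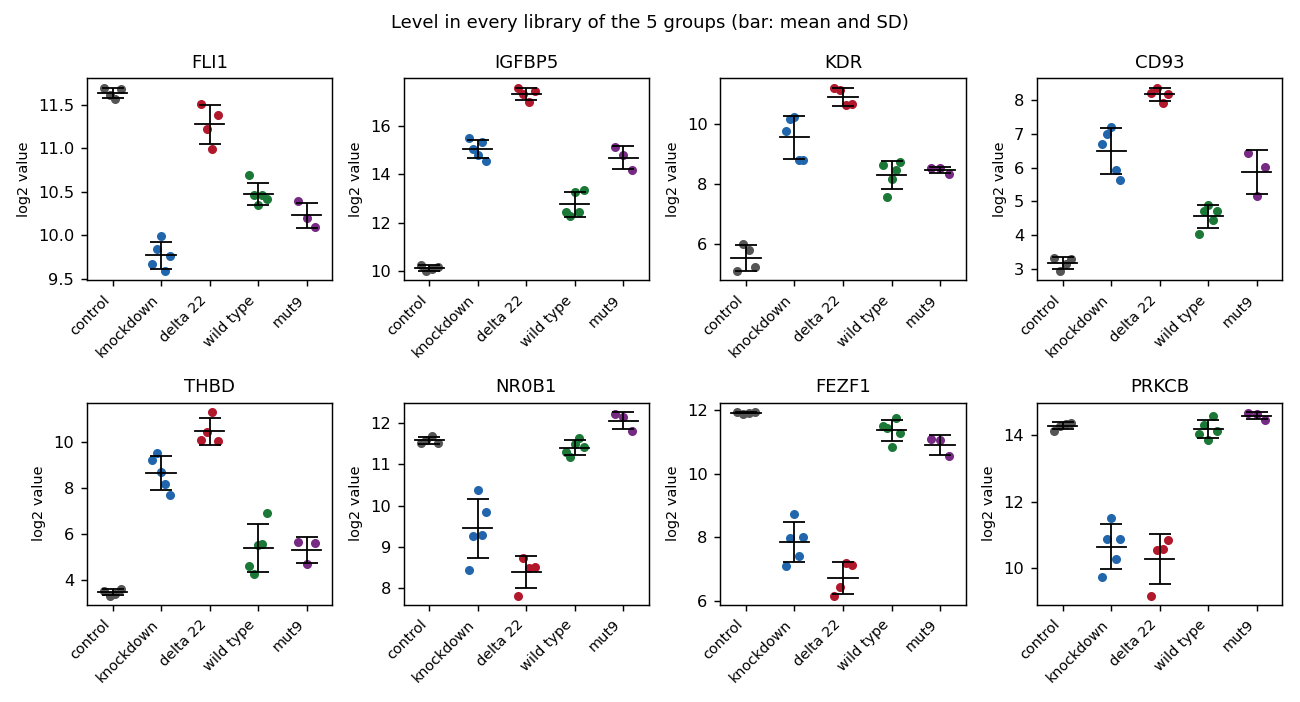
Each point is 1 library's log2 level, grouped as control RNAi (4), knockdown (5), delta 22 (4), wild type (5) and mut9 (3), with the mean and SD as bars. FLI1, IGFBP5, KDR, CD93 and THBD are highest in delta 22 or, for FLI1, second to the controls, while NR0B1, FEZF1 and PRKCB have their lowest mean in delta 22 and are high in the controls.

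Genes that EWS/FLI is known to repress mostly did not pass either. Of 21 listed, all tested, 1 was higher (3.55% of all genes) and 0 lower (3.61%), with a median of 0.11. Against the wild-type rescue 19 of the 21 were higher (32.9% of all genes). That count of 1 over the knockdown was 2 without delta 22 library 3 or within the 4 shared batches. The one that rose was DKK1, a secreted Wnt inhibitor, at 11.99, 12.26, 12.29 and 12.50 with delta 22 and 11.25, 11.59, 10.77, 11.56 and 11.02 without. The groups were separate with a difference of 1.08 ± 0.24 (adjusted p = 0.0143). The fitted differences of IGFBP3, LOX, TGFBR2 and LIF were 0.33, -0.32, 0.28 and -1.22, with adjusted p from 0.0898 for LIF to 0.549 for IGFBP3. For LIF, a cytokine, the levels were 11.16, 13.23, 12.83 and 12.06 against 12.73, 14.01, 14.10, 13.17 and 13.99, which overlap. A set of 28 EWS/FLI targets and related genes was chosen singly, and many of them also stand in the lists. Of the 28, 1 was higher (DKK1, 3.55% of all genes), 2 were lower (NR0B1 and IGF1, 3.61%) and 25 did not pass.

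Most axon guidance and neural genes did not pass. Of 31 tested guidance genes (33 listed) 4 were higher (3.55% of all genes), 1 lower (3.61%) and 26 did not pass, with a median of 0.06. Beside SEMA3D, the guidance receptor ROBO2 was at 10.51, 10.35, 10.32 and 10.92 in delta 22 and 9.45, 9.44, 9.32, 9.54 and 9.09 in knockdown libraries, separate, with a difference of 1.12 ± 0.13 (adjusted p = 0.00058). ROBO2 was below wild type (delta 22 minus wild type -1.81). UNC5C and PLXNA2, receptors of netrins and semaphorins, differed by 0.81 ± 0.21 and 0.78 ± 0.22, and the ligand EFNA5 by -0.55 ± 0.15. UNC5C and PLXNA2 were not called without the batch term (adjusted p = 0.053 and 0.144). The 4 higher became 2 without the batch term, without delta 22 library 1, 2 or 4, or without knockdown library 2 or 5. EFNA5 lost its call in 7 of the 9 fits that left out 1 library, with the highest adjusted p, 0.12, without delta 22 library 3.

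Of 24 tested neural genes (30 listed) 2 were higher (3.55% of all genes), 3 lower (3.61%) and 19 did not pass, with a median of -0.03. Without delta 22 library 3 or 4, 1 was higher. GAP43, a growth cone protein, was at 12.39, 12.12, 12.28 and 12.80 against 11.14, 11.01, 11.22, 11.62 and 10.02 and rose by 1.27 ± 0.20 (adjusted p = 0.00233). SNAP25, a protein of synaptic vesicle fusion, was at 6.04, 6.89, 6.97 and 6.75 against 7.52, 7.38, 7.41, 7.59 and 7.93 and differed by -0.89 ± 0.16 (adjusted p = 0.00392). CHGA, a granin like CHGB, differed by -1.04 ± 0.29 (adjusted p = 0.0414), with an adjusted p of 0.0651 without the batch term.

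Several signalling lists held a few called members. In the Wnt list, 22 of 26 genes tested, 1 was higher (DKK1, 3.55% of all genes) and 5 lower (3.61%), with a median of -0.17. The 5 were the feedback inhibitors NKD1, NKD2 and NOTUM, the transcription factor TCF7 and the receptor FZD7, with differences of -1.03 ± 0.17, -0.79 ± 0.19, -0.99 ± 0.23, -0.68 ± 0.16 and -0.32 ± 0.07. NKD1, at 4.43, 4.47, 4.58 and 4.28 against 5.48, 5.22, 5.72, 5.39 and 5.71, did not overlap. NKD2 and FZD7 were not called without the batch term (adjusted p = 0.119 and 0.164). The 5 lower became 3 without the batch term, without delta 22 library 1 or 3, without knockdown library 4 or within the 4 shared batches, and 2 without delta 22 library 4. Genes of the IGF axis, 18 of 21 tested, had IGFBP5 higher (3.55% of all genes) and PAPPA2, STC2 and IGF1 lower (3.61%). PAPPA2, a protease of IGF-binding proteins, was at 4.29, 5.65, 5.42 and 3.45 against 7.28, 8.21, 6.10, 5.71 and 7.19 and differed by -2.12 ± 0.37 (adjusted p = 0.00375). STC2, an inhibitor of that protease family, differed by -0.79 ± 0.23 and was not called without the batch term (adjusted p = 0.0739). Without the batch term, after quantile scaling, or without delta 22 library 1 or knockdown library 3 or 5, 1 member of this list was lower.

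Of 32 tested receptor tyrosine kinases (34 listed) 2 were higher (3.55% of all genes) and 1 lower (3.61%). Without delta 22 library 1, 2 or 4 or knockdown library 4, 1 was higher. None was lower without delta 22 library 3 or 4 or knockdown library 4, and without knockdown library 2 or within the 4 shared batches 2 were. ROR1, a receptor of Wnt ligands, was at 11.28, 11.49, 11.00 and 11.32 against 10.54, 10.31, 10.34, 10.73 and 10.40 and rose by 0.79 ± 0.10 (adjusted p = 0.000595). EGFR, the epidermal growth factor receptor, was at 11.33, 10.36, 9.88 and 9.86 against 12.04, 11.20, 11.43, 11.40 and 11.88 and differed by -1.15 ± 0.28 (adjusted p = 0.0212). It lost its call in 3 of the 9 fits that left out 1 library, with the highest adjusted p, 0.0727, without delta 22 library 3. Among 22 tested ETS factors (26 listed), FLI1 was higher (3.55% of all genes) and ETS2 and ETV4 lower (3.61%). ETS2 and ETV4 differed by -0.92 ± 0.16 and -0.59 ± 0.13. ETV4 was not called without the batch term (adjusted p = 0.0799), and without delta 22 library 4 also 1 of the list was lower. ETS2 was at 10.38, 11.03, 10.73 and 10.23 against 11.51, 11.59, 11.52, 11.06 and 12.00, without overlap. ETS1 and ERG, further ETS factors of vessel cells, had fitted differences of -0.39 ± 0.22 and -1.11 ± 0.36 (adjusted p = 0.322 and 0.078). Of 25 tested p53 targets and CDK inhibitors (26 listed) 3 were lower (3.61% of all genes) and 0 higher (3.55%). The 3 were SESN2, already given, GADD45A, a growth arrest gene, and BBC3, a cell death gene. GADD45A and BBC3 differed by -1.17 ± 0.24 and -0.79 ± 0.21. The 3 lower became 1 without delta 22 library 1.

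Inflammatory genes were lower in fitted value but varied widely between libraries. Of 26 tested NF-kB and inflammation genes (28 listed) 3 were lower (3.61% of all genes) and 0 higher (3.55%). At an unadjusted limma p under 0.05 there were 20, against 4029 of all 18040 genes. All 26 fitted differences were negative, and their median was -1.10. The 3 called lower were BIRC3, VCAM1, an adhesion molecule, and CXCL6, a chemokine. VCAM1 was at 6.49, 10.46, 8.89 and 10.82 against 9.26, 10.41, 12.10, 12.70 and 12.19 and CXCL6 at 7.07, 10.34, 8.18 and 8.55 against 7.82, 11.01, 12.20, 10.63 and 10.89. Both overlapped between groups, both had library 1 lowest in each group, and their differences were -2.23 ± 0.64 and -2.03 ± 0.59. No member passed without the batch term, without delta 22 library 1, 3 or 4, or without knockdown library 4 or 5, and 1 passed after quantile scaling or without knockdown library 2 or 3. Without delta 22 library 2, 9 did, and within the 4 shared batches alone 19 did.

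The mean log2 level of this list was 9.41, 12.03, 11.33 and 10.66 in delta 22 libraries 1 to 4. It was 10.83, 12.46, 12.92, 11.86 and 12.49 in knockdown libraries 1 to 5. Of 34 interferon response genes, all tested, 0 were called by limma (7.16% of all genes). At an unadjusted limma p under 0.05 there were 5, against 4029 of all 18040 genes. Of the 34 differences 33 were negative, and their median was -0.69. The 15 genes of MHC class I and antigen processing had 0 called by limma (2 at an unadjusted p under 0.05), all differences negative, and a median of -0.15.

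Of 38 ribosomal protein genes, 30 mitosis genes and 13 tested hedgehog genes 0 were called by limma (7.16% of all genes), with medians of 0.04, 0.05 and 0.00. At an unadjusted limma p under 0.05 there were 2, 2 and 2, against 4029 of all 18040 genes. Of 36 DNA replication genes 1 was lower (3.61% of all genes), and none without any one of the 4 delta 22 libraries, without knockdown library 3, 4 or 5, or within the 4 shared batches. Of 29 nuclear genes of the respiratory chain 4 were higher (3.55% of all genes), by at most 0.30, and the one with the smallest adjusted p, SDHA, a subunit of succinate dehydrogenase, differed by 0.27 ± 0.05. Without delta 22 library 1, or within the 4 shared batches, 1 member passed. Of 43 collagen and matrix genes 2 were lower (3.61% of all genes), the proteoglycans LUM and DCN, with differences of -1.01 ± 0.18 and -0.83 ± 0.23, and neither was called without the batch term (adjusted p = 0.204 and 0.242). Of this list 1 was lower without any one of the 4 delta 22 libraries, without knockdown library 2, 3 or 5 or after quantile scaling, and 4 within the 4 shared batches. Of 14 housekeeping genes 3 were higher and 1 lower (7.16% of all genes called), with differences from -0.42 to 0.27, and without the batch term or delta 22 library 1, 2 or 4 or knockdown library 1, 3 or 5, or after quantile scaling, 1 was higher.

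Delta 22 was also set directly against the wild-type rescue, whose construct holds the EWS part that delta 22 mostly lacks. The FLI1 level also differed between these groups, as given above. The form of the construct and its level cannot be told apart here. In this comparison 11487 of 18040 genes were called (63.7%), 5931 higher (32.9%) and 5556 lower (30.8%), and 3586 (19.9%) differed by 2-fold or more. With quantile scaling or with equal library medians, which shift the median of all genes by -0.10 and -0.13, the share higher went from 51.6% of calls to 41.8% and 39.9%. For genes that rose over the knockdown, delta 22 was above wild type by 3.89 for TM4SF18, 3.59 for CD93, 2.54 for KDR and 4.84 for ITGB3. For EMCN and CDH5 the difference from wild type did not pass (0.40 and 0.35, adjusted p = 0.104 and 0.311). Among the falls, BEST1, RYR2 and CD40 were also below wild type (delta 22 minus wild type -1.46, -2.86 and -1.46), while CA12 and LRRN3 were above it by 2.36 and 2.90.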

How the data were processed

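RNA-seq libraries of A673 cells were made with an Illumina ScriptSeq kit from 2.5 ug of total RNA, extracted on RNeasy columns with DNase digestion, per the labels' protocols. The submitters' processing notes name bcl2fastq, STAR 2.5.2b, HTSeq, DESeq2 and hg19. The authors deposited 1 table of log2 values for 21 libraries, per the file headers, in which 17358 of 57820 rows are 0 in every library. Its values have the form of regularized logarithms, which shrink low genes toward their mean and keep no depth, so no count test was run and fold changes of low genes are understated. Library medians over the tested genes ran from 8.87 to 9.19. Ensembl IDs were named from a gene table and GENCODE release 29. Of 825 list genes 9 had no matched row.

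limma 3.58.1 in R 4.3.3 was fitted to all 21 libraries and the 18040 genes with at least log2(10) in 3 libraries, with group and batch as terms (12 residual degrees of freedom), a mean-variance trend and Benjamini-Hochberg adjustment over all genes. It was tested on simulated data. Batch numbers pair the libraries, per the labels. Deviations from the group means correlated at 0.62, 0.41, 0.00 and 0.63 within batches 1 to 4, against a mean of -0.10 between batches. No 2 libraries were identical.

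The comparison, its gene lists and the rules for naming genes were chosen with earlier results of these data known. Genes named are FLI1, EWSR1, the 14 largest rises and falls among called, non-overlapping genes with a mean of at least log2(100), up to 4 members per list with the smallest adjusted p, and a set of known EWS/FLI targets. Further list members, CTH, PCK2, CALCRL, RHOJ, the MHC class II list and the transfer RNA synthetase list were chosen after their values were seen. Promoter windows are RefSeq sequences of GRCh38.p14, matched by symbol for 12338 tested genes. Alternatives covered the batch term, filter, scaling, weights, robust fitting, the libraries in the fit and each library left out. Fitting only batches 1 to 4 of the 2 groups was chosen after seeing the data.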

Additional observations from a re-analysis of the deposited data

Results flagged for a closer look

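For each named gene the lowest and highest library of the delta 22 and knockdown groups were compared with the rest of the group by Dixon's gap test at its 95% critical value. In 6 of the 242 groups examined 1 library stood apart, and chance alone flags about 1 in 20 groups, which is more than that. Delta 22 library 1 was the lowest of its group for CD40 (5.23) and for the matrix cross-linking enzyme LOX (13.08). Knockdown library 1 was the lowest of its group for CD40 too (7.14). Knockdown library 5 was the highest for RYR2 (9.74) and ETS1 (14.19), and knockdown library 3 for AARS1 (14.3).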

How the results depend on the processing

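The count of 1292 genes called (640 higher, 652 lower) changed with the settings of the fit. Without the replicate block 811 were called (404 higher, 407 lower), and with array weights 2746 (1495 and 1251). With only the 2 groups compared in the fit 1020 were called (448 higher, 572 lower). Without a filter 387 were higher, and with a mean of at least log2(100) 100 genes passed with a 2-fold difference, or 2153 against the wild type, in both cases from a different number of genes tested. Leaving out 1 library gave 494 to 1131 genes called, 236 to 604 higher, 258 to 527 lower and 140 to 228 with a 2-fold difference. Calls against the wild type ran from 8499 to 12165 over the alternatives. The FLI1 difference was 1.503 when paired within 4 batches, where the exact test cannot pass, and EWSR1 was -0.11 after quantile scaling (exact permutation p = 0.0317). Genes that were not called could change sign. Leaving out 1 library gave -0.66 to 0.066 for ATF3, -0.011 to 0.25 for NKX2-2, -0.10 to 0.17 for GLI1 and -0.29 to 0.017 for FCGRT, and GLI1 was -0.033 when the fit held the 2 groups alone or their batches 1 to 4. Of the 99 named genes that were called, 54 kept their call without each library in turn and 28 were not called without the replicate block. The cause of these changes was not tested. Depth is unknown, and how it and the number of libraries bear on low genes was not tested.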

Other observations

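The levels of several genes that rose with delta 22 were set beside the luciferase RNAi controls. IGFBP5 was at 9.99 to 10.25 in the 4 controls, 14.53 to 15.50 in the knockdown and 16.97 to 17.56 with delta 22, so delta 22 lay further from the control than the knockdown did. PCSK1 ran from 5.98 to 7.40 in the controls, 10.13 to 11.11 in the knockdown and 12.38 to 12.83 with delta 22. HLA-DRA was at 2.84 to 3.04, 5.73 to 6.98 and 7.49 to 9.78 in the same order. SEMA3D stood at 10.78 to 11.36 in the controls, 8.82 to 9.46 in the knockdown and 10.60 to 11.01 with delta 22, which overlapped the controls, and delta 22 minus control was -0.49 ± 0.14 (limma adjusted p = 0.0042). ROBO2 was at 10.48 to 10.87 in the controls and 10.32 to 10.92 with delta 22, and their difference did not pass (-0.23 ± 0.14, limma adjusted p = 0.162).

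CALCRL and RHOJ, chosen after their values were seen, are a receptor subunit for adrenomedullin and a small GTPase of endothelial cells. CALCRL was at 8.13 to 9.31 with delta 22 and 6.59 to 7.97 in the knockdown, a difference of 1.32 ± 0.20. RHOJ was at 9.76 to 10.43 against 8.60 to 9.42. Both were higher without overlap (8.36% of all genes did not overlap), and both kept their call without the batch term. Chosen in this way, they say little about vessel genes as a set. Of the 8 endothelial markers tested, 3 were higher and 1 lower. Delta 22 and mut9, compared over libraries of which only batches 3 and 4 are shared, gave SEMA3D differences that did not pass (0.13 ± 0.15, limma adjusted p = 0.496), and HLA-DRA was 5.4 ± 0.42 higher with delta 22.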
